A study of Homo sapiens with 8 samples.

Results

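Open chromatin in gene deserts was examined in U-937 cells, a human acute myeloid leukaemia (AML) cell line of monocytic character. Peaks of 4 deposited lists of open regions that overlapped were merged into 161291 union regions on 24 chromosomes. A union region was a member when its midpoint lay more than 200 kb from every annotated start of a protein-coding gene (GENCODE release 44, hg38). By this rule 11752 of the 161291 regions (7.29%) lay in gene deserts. Among the union regions the choice used position only. Each union region exists because at least 1 list called it, so that all call shares are relative to such regions.

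The lists come from ATAC-seq, in which a transposase cuts accessible DNA. The 8 samples formed 4 groups of 2, treated for 24 hours with the vehicle DMSO, with ATRA, with Corin, or with ATRA and Corin together, each compound at 0.1 µM. ATRA is all-trans retinoic acid, a ligand of the retinoic acid receptors used to differentiate leukaemic cells. Corin is a synthetic inhibitor of the CoREST complex, which carries the demethylase LSD1 and histone deacetylases. All groups share this 1 line, with no genetic change named in the labels, which limits it as a model of AML. The authors deposited 1 list per group, in which the 2 samples were already combined. No spread between samples could therefore be computed, no test between groups was possible, and no p-value is given. Intervals beside shares are 95% Wilson intervals for the number of regions counted. Neighbouring regions are not independent, so that the true uncertainty is wider.

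Gene deserts are long stretches of the genome without protein-coding genes, and many of them flank developmental regulators. They are known to hold distal enhancers, short stretches bound by transcription factors that can act on a promoter over long distances. In myeloid cells PU.1, C/EBP, RUNX and IRF factors bind such enhancers, AP-1 binds many that respond to stimulation, and CTCF binds the anchors of chromatin loops.

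Windows of 200 bp at the strongest summit are printed for 8 members, on the plus strand of hg38, because they show the letters compared between call patterns. Capitals mark matches on either strand to the AP-1 motif TGACTCA, the PU.1 motif GAGGAAGT, the C/EBP motif TTGCNNAA or the E-box CAGCTG, and the rest is in lower case. The first 3 were the strongest called only with ATRA and with the combination. The first of them lies in the long noncoding RNA gene LINC00578, 298 kb from the nearest coding start, that of TBL1XR1 (a subunit of nuclear corepressor complexes), and holds a PU.1 match. The other 2 hold no match to any of the 13 motifs searched.
chr3:177526320-177526519: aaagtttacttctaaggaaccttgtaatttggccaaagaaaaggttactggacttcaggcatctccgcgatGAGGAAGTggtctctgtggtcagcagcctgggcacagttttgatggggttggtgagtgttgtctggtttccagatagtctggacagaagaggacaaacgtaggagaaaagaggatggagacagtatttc
chr3:177481369-177481568: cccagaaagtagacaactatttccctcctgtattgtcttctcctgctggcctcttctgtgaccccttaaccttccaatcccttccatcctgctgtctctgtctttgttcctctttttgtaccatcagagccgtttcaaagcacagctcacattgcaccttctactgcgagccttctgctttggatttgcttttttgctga
chr12:89968388-89968587: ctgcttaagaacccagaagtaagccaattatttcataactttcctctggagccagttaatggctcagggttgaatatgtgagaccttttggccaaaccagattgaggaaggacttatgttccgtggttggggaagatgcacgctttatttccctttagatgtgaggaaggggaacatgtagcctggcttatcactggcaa

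The next 3 were the strongest called with DMSO and Corin only, and each holds an AP-1 match. They lie 208 kb from CXCR4 (a chemokine receptor), 247 kb from RPS6KA3 (a kinase of the ERK pathway) and 224 kb from APCDD1 (an inhibitor of Wnt signalling).
chr2:136327586-136327785: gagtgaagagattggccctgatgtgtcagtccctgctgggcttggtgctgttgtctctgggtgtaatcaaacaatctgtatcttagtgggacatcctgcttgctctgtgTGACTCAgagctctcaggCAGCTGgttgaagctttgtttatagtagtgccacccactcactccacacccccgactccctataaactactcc
chrX:20514534-20514733: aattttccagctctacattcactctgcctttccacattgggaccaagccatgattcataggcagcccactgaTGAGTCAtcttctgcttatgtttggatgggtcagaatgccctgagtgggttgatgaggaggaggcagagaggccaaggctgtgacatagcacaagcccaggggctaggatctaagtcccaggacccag
chr18:10230203-10230402: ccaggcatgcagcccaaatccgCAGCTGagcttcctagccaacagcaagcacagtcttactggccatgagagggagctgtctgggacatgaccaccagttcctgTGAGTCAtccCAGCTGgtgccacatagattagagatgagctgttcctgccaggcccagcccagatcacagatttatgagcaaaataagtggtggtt

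Another is the member with the highest −log10 p of all, called in every list, 243 kb from GPC5 (a heparan sulphate proteoglycan). The last had the highest fold in 3 of the 4 lists and is shown because its letters are repeated elsewhere in the genome.
chr13:91155049-91155248: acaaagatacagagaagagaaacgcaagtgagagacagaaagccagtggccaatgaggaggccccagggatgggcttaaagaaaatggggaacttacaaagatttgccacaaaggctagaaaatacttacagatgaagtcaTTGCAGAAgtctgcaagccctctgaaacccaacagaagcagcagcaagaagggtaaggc
chr9:62838519-62838718: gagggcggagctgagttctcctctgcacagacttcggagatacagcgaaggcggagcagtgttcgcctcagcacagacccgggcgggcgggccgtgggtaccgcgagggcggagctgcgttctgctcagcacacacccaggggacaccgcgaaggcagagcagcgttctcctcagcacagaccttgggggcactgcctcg

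Read depth is unknown, since the lists hold no counts of reads. The most frequent local background solved from the deposited p and fold, a measure that grows with depth, was 9.12 in the ATRA list, 12.80 in the DMSO list, 13.14 in the Corin list and 13.94 in the combination list. The ATRA list thus stood apart from the others, and its folds ran higher over all regions (median 7.81, while the other medians lay between 5.15 and 6.16). Folds are therefore compared only within a list. A promoter region was open in every list for 11 of 12 myelomonocytic marker genes, MPO being the exception. The same held for 6 of 13 markers of other lineages.

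Desert sequence made up 24.3% of the known bases of the 24 chromosomes, in 1136 stretches, and was sparsely open. It held 16.5 union regions per Mb, against 67.3 per Mb outside. No open region was found in 255 of the 1136 stretches. The members clustered, and 64.5% had another member within 10 kb. Their median distance to a coding start was 361 kb and their median width 484 bp. Protein-coding gene bodies, in their far parts, held 7.46% of the members, and 13 members lay in an exon of such a gene. A further 35.2% lay in long noncoding RNA genes and 57.3% in neither. For regions 50 to 200 kb from a coding start the shares were 28.5%, 23.9% and 47.6%.

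DMSO cells had a call at 7352 of the 11752 members (62.6%, 61.7 to 63.4). With ATRA 6860 were called (58.4%, 57.5 to 59.3), with Corin 6425 (54.7%, 53.8 to 55.6) and with the combination 5943 (50.6%, 49.7 to 51.5). The order of the 4 lists was the same over all union regions, where the shares were 70.5%, 68.6%, 61.5% and 57.8%. Every list thus called a smaller share of the desert regions than of all regions.

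Within each list the members had low median folds. The median fold over local background, as the authors give it, was 4.63 for members called in DMSO and 5.15 for all regions of that list. In the ATRA list the medians were 6.82 and 7.81, in the Corin list 3.96 and 5.16, and in the combination list 4.22 and 6.16. Of the members in a list, 10.5% in DMSO, 10.2% in ATRA, 8.79% in Corin and 7.32% in the combination belonged to the strongest 20% of all its regions. The position was lowest in the combination list, where 35.1% of members exceeded the list's median fold, against 44.8% in DMSO. Without chromosome 13 the DMSO median of the members was 5.15, and 49.8% of them exceeded the list's median fold. The medians of all regions still include chromosome 13, and that of the DMSO list was also 5.15. In the other lists the median of the members stayed below that of all regions, at 7.02, 4.6 and 4.95. The share in the strongest 20% of the DMSO list was still 11.6%.

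**Figure D1:**
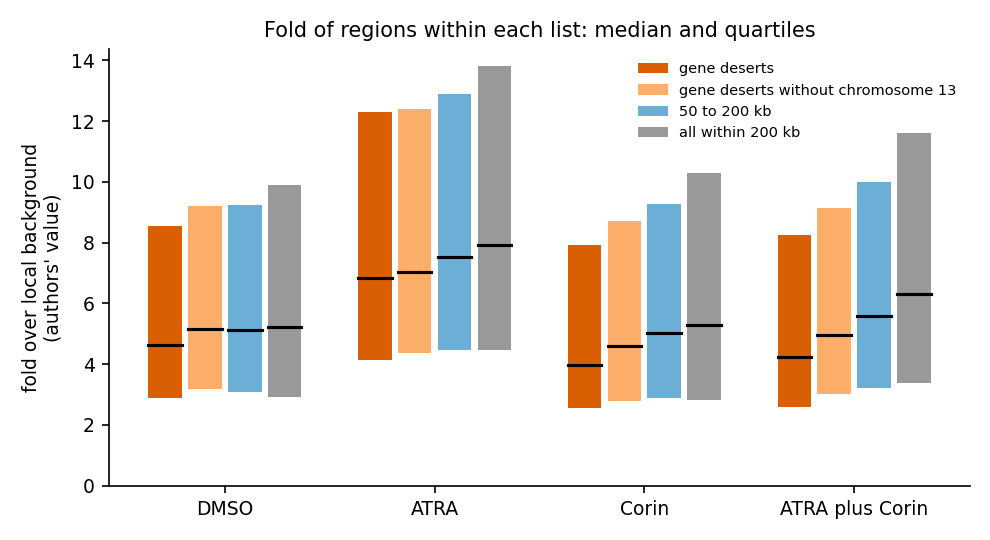
Fold over local background (vertical axis, the authors' value) in each of the 4 lists for regions in gene deserts, the same without chromosome 13, regions 50 to 200 kb from a coding start and all regions within 200 kb. Bars span the lower to the upper quartile and black lines are medians. In every list the median of the desert regions (4.63, 6.82, 3.96 and 4.22) lies under that of the regions within 200 kb (5.22, 7.91, 5.28 and 6.32).

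All 4 lists called 3335 members (28.4%, 27.6 to 29.2), against a background of 41.1% over all union regions and 37.1% at 50 to 200 kb. The share went down with distance. It was 31.7% (30.7 to 32.8) at 200 to 500 kb, 23.9% (22.3 to 25.6) at 500 to 1000 kb and 16.3% (14.4 to 18.4) beyond 1000 kb. At the 200 kb limit itself there was no step, with 33.4% just inside (180 to 200 kb) and 34.6% just outside (200 to 220 kb). Beyond 1000 kb the 4 lists differed most, with 59.5% of 1271 regions called in DMSO, 50.1% in Corin, 46.3% in the combination and 40% in ATRA. Without chromosome 13 the ATRA share there was 53.9% (50.1 to 57.6) of 681 regions, and the shares called in all 4 lists were 33.5%, 29.3% and 21.6% over the 3 distance classes.

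**Figure D2:**
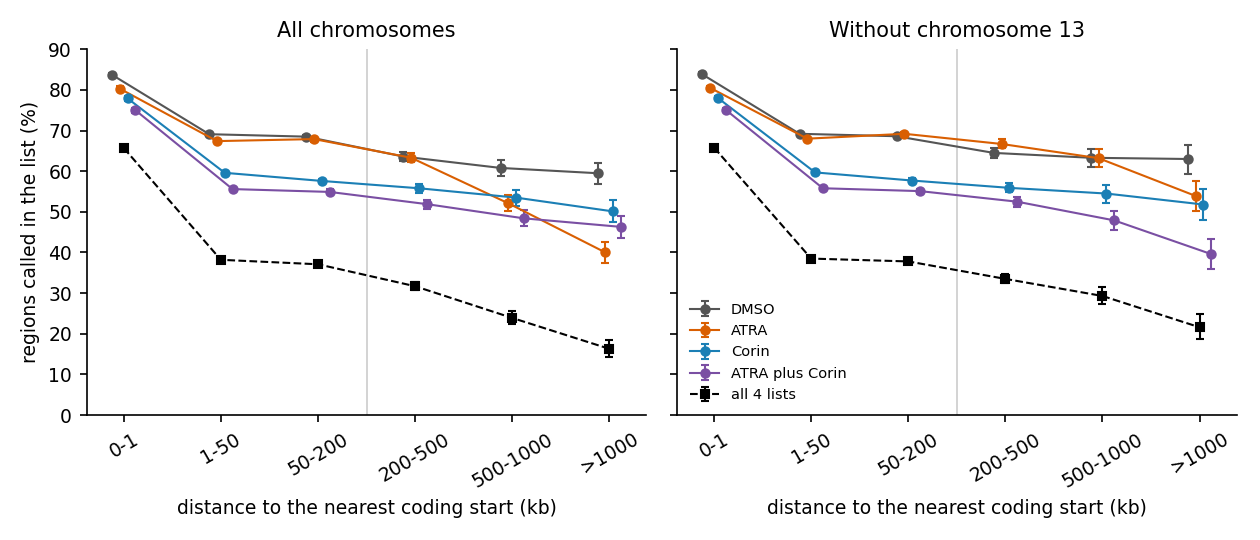
Share of union regions called in each list (vertical axis, percent) by distance to the nearest start of a protein-coding gene (horizontal axis, kb), for all chromosomes and without chromosome 13. Points are shares with 95% Wilson intervals, dashed squares are regions called in all 4 lists, and the grey line marks the 200 kb limit. The share called in all 4 lists goes from 65.7% within 1 kb to 16.3% beyond 1000 kb, and the steep ATRA line on the left is flatter on the right.

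Members changed lists more often than regions at large. Of the 6860 members open with ATRA, 1984 (28.9%, 27.9 to 30) were not called in DMSO, against a background of 23.3%. Of the 7352 members open in DMSO, 2476 (33.7%, 32.6 to 34.8) were not called with ATRA, against 25.4%. The losses outnumbered the gains here, but the balance turned without chromosome 13, to 1810 gained and 1716 lost, and with a limit of 5 on −log10 q, to 1874 gained and 1552 lost. For Corin the members gained were 1700 of 6425 (26.5%, background 17.8%) and those lost 2627 of 7352 (35.7%, background 28.4%). For the combination 1532 of 5943 were gained (25.8%, background 16.6%) and 2941 of 7352 lost (40%, background 31.6%).

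The combination was also set against each compound alone. Against ATRA it gained 1756 of 5943 members (29.5%, background 15.4%) and lost 2673 of 6860 (39%, background 28.7%). Against Corin it gained 1824 of 5943 (30.7%, background 20.4%) and lost 2306 of 6425 (35.9%, background 25.1%). These comparisons share lists with each other, so that their shares are not independent of one another. In all 10 comparisons the share of members exceeded the background. Leaving chromosome 13 out of the members moved 2 of them by more than 5 percentage points towards this background, which includes that chromosome. Members lost with ATRA then made up 28%, against 24.4% of all regions without chromosome 13. Those gained with the combination against ATRA made up 21.6%, and no background without chromosome 13 was computed for them.

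The strength of the members moved with these shares. All union regions were divided into 5 classes of equal size by their highest −log10 p in any list, a division chosen after the call shares were seen. The weakest class held 27.7% of the members and the strongest 10.3%, where 20% of all regions fall in each. In the middle class and the stronger ones the members were called in all 4 lists slightly less often than all regions. In the middle class the share was 24% (22.4 to 25.8) of members and 26.9% of all regions. In the next stronger class it was 73.6% (71.6 to 75.5) and 76.8%, and in the strongest 97.8% (96.8 to 98.5) and 98.5%. With the classes weighted as in all regions, 39.8% of the members were called in all 4 lists, next to the background of 41.1%. Weighted in the same way against DMSO, ATRA gained 22.6% and lost 26.2%, Corin gained 17.8% and lost 28.7%, and the combination gained 15.5% and lost 31.6%. The combination gained 16.3% and lost 30.7% against ATRA, and gained 20.6% and lost 25.7% against Corin. In these weighted shares the members lay close to the background, the widest gap being the 30.7% lost against ATRA beside 28.7% of all regions. Gaps within single classes were wider and went both ways. Of the regions open in DMSO, the combination lost 81.1% of members and 89.5% of all regions in the weakest class. In the middle class it lost 49.7% and 42.8%. Strength and calls come from the same peaks, and the part of strength in the calls was not tested further.

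Chromosome 13 held far more desert regions than its length. It had 2181 of the 11752 members (18.6%) in 5.53% of the desert sequence, or 55.3 per Mb. On the 22 other chromosomes apart from Y the density ranged from 6.13 to 26.7 per Mb, with a median of 10.9. Outside deserts chromosome 13 had 91.1 regions per Mb, inside the range of the other chromosomes (36.1 to 112) but above their median of 68. Only chromosomes 19 (112) and 20 (103) had more. The surplus in deserts was largest among weak regions. Members of chromosome 13 had median folds of 2.75 in DMSO, 5.04 in ATRA, 2.5 in Corin and 2.48 in the combination, and 13.3% were called in all 4 lists. Counting only members called in all 4 lists, its density was 7.35 per Mb, above the 4.51 of the other chromosomes together and below the 8.46 of chromosome 15 and the 8.55 of chromosome 19.

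Among the members on this chromosome ATRA had the fewest calls. DMSO cells had a call at 1215 of the 2181 members (55.7%, 53.6 to 57.8), Corin at 1127 (51.7%) and the combination at 1092 (50.1%), but ATRA at 629 (28.8%, 27 to 30.8). Of the members open in DMSO there, 62.6% were not called with ATRA, and of those open with the combination 64.8% were not called with ATRA. On the other chromosomes together ATRA called 6231 members and DMSO 6137, and ATRA called more than DMSO on 14 of 22. Without chromosome 13, therefore, the ATRA list was the longest of the 4 in gene deserts. Few ATRA calls were not particular to the deserts of chromosome 13. In the weakest of the strength classes ATRA called 11.7% of all union regions and DMSO 43.3%. At 50 to 200 kb, leaving out chromosome 13 moved the ATRA share from 67.9% to 69.2%. The DMSO share there moved from 68.5% to 68.6%. The local background under the desert peaks of chromosome 13 had a median of 1.04 times the usual level in DMSO, 1.07 in ATRA, 1.04 in Corin and 1.08 in the combination, and elsewhere 1, 1.07, 1 and 1.04. The ATRA list also had the lowest usual background (9.12). The part of either in the counts was not tested.

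**Figure D3:**
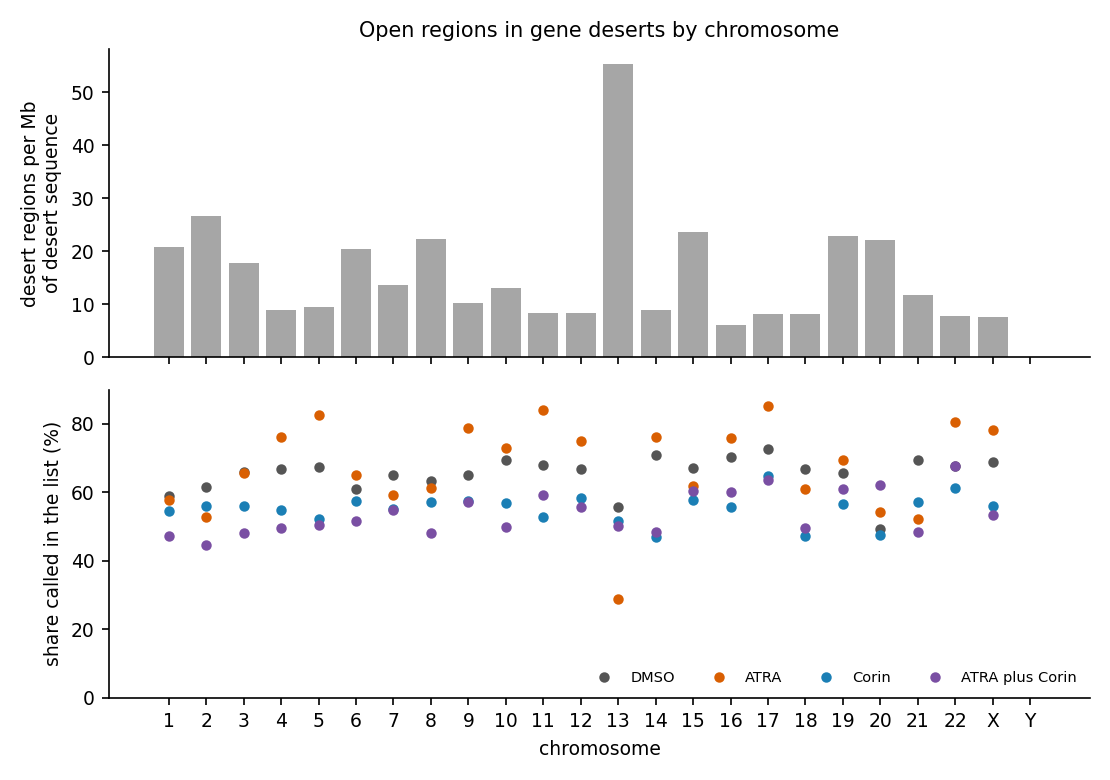
Desert regions per Mb of desert sequence on each chromosome (upper panel, bars) and the share of them called in each list (lower panel, points, percent). Chromosome Y, with 2 regions, has no points in the lower panel. Chromosome 13 stands at 55.3 per Mb against 26.7 for the next chromosome, and the ATRA point of 28.8% is the lowest of that panel.

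The deserts with the most members were 4 on chromosome 13 and 1 on chromosome 2. The largest, between SLITRK5 (a neuronal membrane protein) and GPC5 at chr13:87872616-91198620, where every position is over 200 kb from a coding start, held 575 members, or 173 per Mb. Calls there numbered 366 with the combination, 317 in DMSO, 240 with Corin and 169 with ATRA, so that the combination led although it had the fewest members overall. Most were weak, with median folds of 2.29, 2.56, 2.32 and 3.18 in that order, and 79 were called in all 4 lists. The lists called 57.8%, 70.5%, 61.5% and 68.6% of all regions in the same order, and 41.1% of all regions were called in every list. The solved local background was raised in this desert in every list, at 1.27 times the usual level in DMSO, 1.19 in ATRA, 1.54 in Corin and 1.48 in the combination. Its part in the number of calls was not tested.

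Weak regions lay along the whole of that desert. In every 500 kb of it but the first and the last, 87 to 105 members were called in at least 1 list, while the first 500 kb held 45. Between 2500 and 3000 kb from its start the combination called 66 of 87 members and ATRA 14. A few strong regions stood out above this carpet. The strongest by −log10 p, chr13:91154549-91155968, had folds of 16.6 in DMSO, 17.8 in ATRA, 13.9 in Corin and 15.8 in the combination. It was singled out after its values were seen. Its −log10 p was 2134 in the ATRA list, over a local background 15.5 times the usual one. Other members of this desert had higher folds, up to 21.3 in DMSO and 23.7 in ATRA.

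**Figure D4:**
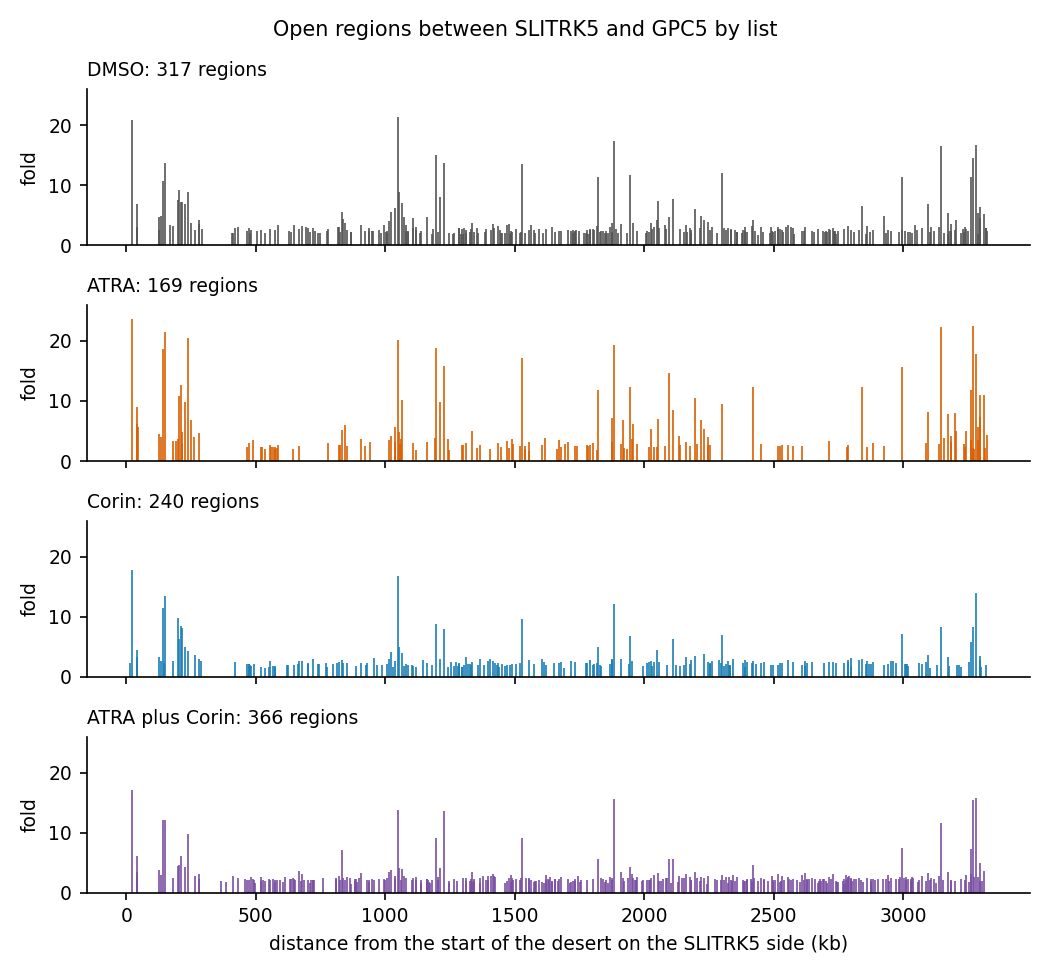
Open regions of the desert between SLITRK5 and GPC5 in each list, by distance from the start of the desert (horizontal axis, kb), with the fold over local background as the height of each line (vertical axis, the authors' value). A low carpet of regions with folds near 2 to 3 fills the DMSO, Corin and combination panels, with 317, 240 and 366 regions, and is thinner in the ATRA panel with 169, while the tall lines recur in all 4.

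The next desert, between SLC10A2 (an ileal bile acid transporter) and DAOA, had 244 members and the sharpest split, with 144 called in DMSO, 132 with Corin, 102 with the combination and 35 with ATRA. Its few ATRA regions had a median fold of 8.11, above the 6.82 of all members in that list, while its DMSO regions had 2.59, below the 4.63 of all members in theirs. SPRY2 and SLITRK1 flanked 178 members, of which DMSO cells had 97 and ATRA cells 29. OLFM4 and PRR20A flanked 158, with 85 and 29. On chromosome 2, TMEFF2 and SLC39A10 (a zinc transporter) flanked 154, with 84 in DMSO, 90 with Corin, 52 with the combination and 47 with ATRA. The shares over all regions were 70.5% in DMSO, 61.5% with Corin, 57.8% with the combination and 68.6% with ATRA. In these 5 deserts the members called in all 4 lists made up 6.74% to 13.7%, against 41.1% of all regions. They held 1309 members together.

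Members called in both lists that contain ATRA but not in DMSO were spread thinly. They numbered 419 (3.57% of the members, 3.24 to 3.92), under the 4.15% of all union regions. The largest number in 1 desert was 16, in the one between SLITRK5 and GPC5, where they were 16 of 575. Between GADD45G (a stress-response protein) and DIRAS2 (a small GTPase), at chr9:89805093-90442823, they were 12 of 44. In that desert ATRA and the combination each called 35 members, Corin 20 and DMSO 16. Of all regions ATRA called 68.6%, the combination 57.8%, Corin 61.5% and DMSO 70.5%. This desert was named for its number of members called with ATRA and the combination but not in DMSO. More calls in these lists than in DMSO follow in part from that choice. The regions chr9:90103772-90104301 and chr9:90078875-90079634 in it were 2 of the 3 strongest called in all 3 treatments but not in DMSO. The first had folds of 5.85 with ATRA, 3.42 with Corin and 8.43 with the combination, and the second 8.8, 3.75 and 11.8. Members of that pattern numbered 97 (0.825%, against 0.952% of all regions).

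In 3 further deserts the numbers were smaller. Between ZNF254 and UQCRFS1 on chromosome 19, a stretch that spans a centromere, 9 of 109 members had this pattern. Between MID1IP1 and BCOR (a corepressor that binds BCL6) on chromosome X it was 6 of 77, and between TLE3 (a Groucho corepressor) and UACA on chromosome 15 it was 6 of 35. The desert from TLE3 to UACA is short, at 164 kb, and had the highest density of the named deserts, at 214 per Mb. The local background was raised in all 3, at 1.58 to 3.04 times the usual level.

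Among members called with ATRA and the combination only, of which there were 322 (2.74%, against 3.2% of all regions), the strongest were chr3:177526097-177526637 and chr3:177481197-177481766, both in LINC00578. The first had a fold of 20 with ATRA and 7.97 with the combination, and the second 22.8 and 7.97. The third, chr12:89968171-89968700, lies 259 kb from ATP2B1 (a plasma membrane calcium pump), with folds of 21.5 and 4.28. None of the 3 had a call with DMSO or Corin. The strongest member called with ATRA alone, chr2:88897720-88898048, had a fold of 17 and lies 206 kb from RPIA (an enzyme of the pentose phosphate pathway).

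Members called with DMSO and Corin only numbered 539 (4.59%, against 4.24% of all regions). The strongest, chr2:136327415-136327852 near CXCR4, had a fold of 5.56 in DMSO and 10.1 with Corin. At chrX:20514359-20514901 the folds were 2.73 and 9.02, and at chr18:10229996-10230553 they were 8.91 and 15.5. Their −log10 p was 328, 278 and 201 in the Corin list and 100, 20.5 and 74.4 in the DMSO list.

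DMSO and ATRA without the other lists called 693 members (5.9%, against 5.14% of all regions), led by chr8:110673699-110674434, 698 kb from KCNV1, with folds of 4.86 in DMSO and 19.5 with ATRA. At chr2:41597773-41598511 near PKDCC they were 6.23 and 17.4, and at chr6:88535230-88535738 near CNR1 (a cannabinoid receptor) 9.71 and 17.3. Corin and the combination without the other lists called 251 (2.14%, against 1.51%). The strongest of these, chr15:39262803-39263751 near THBS1 (thrombospondin 1), had folds of 9.83 and 14.1, but of the 32-base words in its window 24.9% occur once in the genome. The other 2, chr2:48114310-48114676 near FOXN2 and chr9:22240628-22240991 near DMRTA1, had unique windows with an AP-1 match, and folds of 4 and 3.71 and of 8.53 and 3.07.

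Members called in DMSO alone numbered 1294 (11%, against 10.2% of all regions), the strongest being chr5:108054314-108054819 in FBXL17 (an F-box protein of a ubiquitin ligase), with a fold of 8.7. At chr2:175585523-175586036 near LNPK the fold was 7.53, and at chrX:39752842-39753100 near BCOR it was 2.79 over a local background 8.86 times the usual one. ATRA alone called 1516 members (12.9%, against 11.4% of all regions), Corin alone 1303 (11.1%, against 8.05%) and the combination alone 862 (7.33%, against 3.93%). Without chromosome 13, among 9571 members, DMSO alone called 958, ATRA alone 1390, Corin alone 928 and the combination alone 533. The strongest with the combination alone, chr6:14888526-14888918 near JARID2 (a cofactor of Polycomb repressive complex 2), had a fold of 3.98. The strongest with Corin alone, chr22:27107856-27108208 near CRYBA4, had a fold of 10.1 and an AP-1 match. Members called in 1 list only were weak within that list. Their median fold was 2.6 beside 4.63 for all members of the DMSO list, and 3.95 beside 6.82 in the ATRA list. It was 2.33 beside 3.96 in the Corin list and 2.21 beside 4.22 in the combination list.

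Motif matches differed between the call patterns. Of the members called with DMSO and Corin only, 23.7% (20.3 to 27.5) held an AP-1 match and 2.04% (1.14 to 3.62) a PU.1 match. Of those called with ATRA and the combination only, 4.66% (2.84 to 7.54) held an AP-1 match and 16.1% (12.5 to 20.6) a PU.1 match. The intervals of both motifs do not overlap between these patterns. Over all members the shares were 10.7% for AP-1 and 7.16% for PU.1, and over all regions within 200 kb 9.49% and 6.69%. The IRF motif GAAANNGAA went with PU.1, at 16.1% (12.5 to 20.6) with ATRA and the combination and 3.53% (2.27 to 5.44) with DMSO and Corin, against 6.97% within 200 kb. For C/EBP the shares were 20.5% and 14.1%, with intervals that overlap, against 14.3% within 200 kb.

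The other patterns varied. AP-1 matches were found in 13.2% (11.5 to 15.1) of members called with Corin alone, and in 4.55% (3.61 to 5.72) of those with ATRA alone. PU.1 matches were found in 1.3% (0.816 to 2.08) and 14.5% (12.8 to 16.4). With DMSO and ATRA only the shares were 3.9% for AP-1 and 11.7% for PU.1. With the combination alone both were low, at 3.71% and 2.09%. The 3 treatments without DMSO called 97 members (0.825%, against 0.952% of all regions). Of these 97, 16.5% held AP-1 and 10.3% PU.1. DMSO alone gave 8.5% and 2.63%, and Corin and the combination only 8.37% and 1.99%. Members called in all 4 lists held AP-1 in 15.2% (14 to 16.4), PU.1 in 9.24% (8.3 to 10.3) and the CTCF motif in 5.1% (4.4 to 5.9), each above the 9.49%, 6.69% and 3.1% of all regions within 200 kb. At 50 to 200 kb regions called in all 4 lists had 13.9%, 8.89% and 5.24%. A match is a run of letters, not a site bound by a factor.

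Base composition moved with the patterns too. Mean GC content of the windows was 42.4% for ATRA alone, 43.4% for ATRA and the combination and 44% for DMSO and ATRA. It was 49.4% for Corin alone, 50% for DMSO and Corin and 52.2% for the combination alone. Among windows of 40 to 50% GC the differences in AP-1 and PU.1 stayed. AP-1 matches were then in 33.3% (27.6 to 39.6) of 237 members called with DMSO and Corin only, and in 4.66% (2.47 to 8.62) of 193 with ATRA and the combination only. PU.1 matches were in 3.38% (1.72 to 6.52) and 15% (10.7 to 20.7), and IRF matches in 3.8% (2.01 to 7.06) and 13.5% (9.36 to 19). For C/EBP no gap was left, with 18.6% (14.1 to 24) and 18.1% (13.3 to 24.2).

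The same motif pattern was present outside deserts. At 50 to 200 kb, 25.4% (23 to 28) of 1171 regions called with DMSO and Corin only held AP-1 and 2.31% PU.1, and of 935 called with ATRA and the combination only 3.53% held AP-1 and 15.8% (13.6 to 18.3) PU.1. It is therefore not particular to gene deserts.

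**Figure D5:**
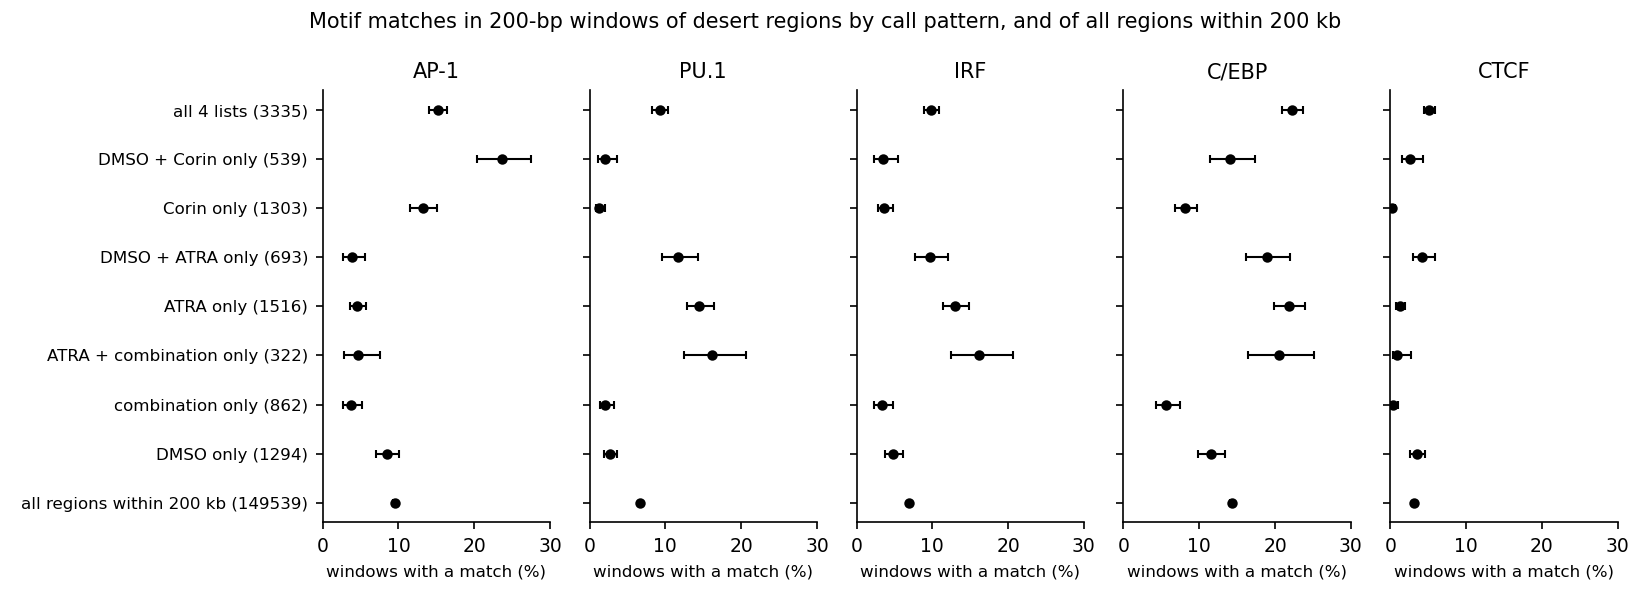
Share of 200-bp windows with a match to the AP-1, PU.1, IRF, C/EBP and CTCF motifs (horizontal axis, percent, with 95% Wilson intervals) for desert regions by call pattern, with the number of regions in brackets, and for all regions within 200 kb. AP-1 is highest with DMSO and Corin only (23.7%) and PU.1 highest with ATRA and the combination only (16.1%).

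The E-box CAGCTG also differed, at 18.9% (15.8 to 22.4) of members called with DMSO and Corin only and 7.76% (5.31 to 11.2) of those with ATRA and the combination only, against 14.6% of all members. Among windows of 40 to 50% GC these were 13.5% (9.73 to 18.4) and 6.22% (3.59 to 10.6), with intervals that overlap. RUNX (TGTGGTT) matched 9.1% of members and 8.2% of regions within 200 kb, and 12.9% of members called in all 4 lists. AGATAAG, the letters of the GATA factors, matched 2.73%. GFI1 (AAATCACNG) matched 0.468% and KLF/SP (GGGCGGGG) 0.774%. ETS (ACCGGAAGT), CREB (TGACGTCA) and the direct repeat with spacer 5 bound by retinoic acid receptors each matched 12 of the 11752 members (0.102%). At 50 to 200 kb the last of these matched 0.137% (0.0996 to 0.189), an interval that overlaps that of the members (0.0584 to 0.178). Among regions called with ATRA and the combination only, this repeat matched 3 of 322 members (0.932%, 0.317 to 2.7) and 6 of 935 regions at 50 to 200 kb (0.642%, 0.294 to 1.39). Among those called with DMSO and Corin only, it matched 0 of 539 members, an interval of up to 0.708%, and 1 of 1171 at 50 to 200 kb. The counts are small.

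Members at starts of long noncoding RNA genes were called in all lists more often than other members. Of 431 members within 1 kb of a start of such a gene, 45% were called in all 4 lists. This lay above the 28.4% of all members and near the 41.1% of all regions. The same share was 56.1% for 1048 such regions at 50 to 200 kb and 66.8% for all such regions within 200 kb.

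The members with the highest folds included repeated sequence. The region chr9:62838021-62838791, 1508 kb from CNTNAP3C, had folds of 31.5 in DMSO, 32.3 in ATRA, 32.3 in Corin and 32.2 in the combination. Of the 32-base words of its window, 37.9% occur once in the genome. The region chr5:21459188-21459887 at the start of GUSBP1, a pseudogene of the lysosomal enzyme GUSB, had folds of 28.2, 29, 29 and 29.5, with 37.3% of such words. The region chr17:53105662-53106455, 717 kb from KIF2B, had 28.3, 32.7, 26.7 and 29.9. A stretch of 653 bp of that region matches the mitochondrial genome at 96.2% identity. Mitochondrial DNA is abundant in ATAC-seq, and its part in this call was not tested.

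High folds were also present in unique sequence. The region chr2:128654141-128655083, 336 kb from HS6ST1 (a heparan sulphate sulfotransferase), had 25.8, 33.8, 22.6 and 27.5, with 91.1% unique words and an AP-1 match. The region chr8:128556575-128557358 in LINC00824, 818 kb from MYC (a transcription factor that drives growth), had 26.4, 32.9, 21.6 and 24.7, with 100% unique words and an AP-1 match. Between these in uniqueness were chr21:20292702-20293694, 705 kb from NCAM2, with 58% and folds of 25.7, 33.8, 23.6 and 26.2, and chr9:41643535-41644496 near CNTNAP3B with 68% and 24.3, 26.6, 28.6 and 28.3. All of these highest regions were called in every list.

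Over all members 85.5% had a window in which at least 90% of the words occur once, against 89.2% at 50 to 200 kb. Beyond 1000 kb from a coding start the share was 73.9%. A mitochondrial match was found in 34 members (0.289%), against 0.0742% at 50 to 200 kb, and 26 of the 34 were called in all 4 lists. At 50 to 200 kb it was 13 of 20 such regions, and within 200 kb 40 of 63. Of all regions, with or without a match, 41.1% were called in all 4 lists. The 3 farthest members called in all 4 lists, 3993 to 5420 kb from a coding start, had 0 to 48.5% unique words. They lie at chr21:5101769-5102090, chr21:5154702-5154990 and chr1:125179895-125180756.

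The widest members were chr13:86838424-86841568 (3145 bp), chr1:104465556-104468634 (3079 bp) and chr6:6798434-6801406 (2973 bp). The last lies 211 kb from LY86 (a partner of a Toll-like receptor relative on myeloid cells), in unique sequence. Its folds were 3.94 in DMSO, 7.07 in ATRA, 5.19 in Corin and 5.1 in the combination. Another strong member, chr6:45681710-45682711, lies 260 kb from RUNX2 and 255 kb from CLIC5. It had folds of 12.5, 12.9, 13.4 and 13.2, over a local background 15.4 times the usual one, and was singled out after its values were seen.

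Members nearest to genes of myeloid and other blood factors were counted from a list of 53 genes. Of these, 20 were the nearest coding gene of at least 1 member, with 500 members in all. In this set 38% were called in all 4 lists, between the 28.4% of all members and the 41.1% of all regions. ATRA called 366 (73.2%, against 68.6% of all regions), DMSO 338 (67.6%, against 70.5%), Corin 301 (60.2%, against 61.5%) and the combination 262 (52.4%, against 57.8%). With ATRA 29% were gained, against 28.9% of all members and 23.3% of all regions. ATRA lost 23.1%, against 33.7% of all members, 28% of members without chromosome 13 and 25.4% of all regions. With Corin 19.6% were gained, against 17.8% of all regions, and 28.4% lost, the same as of all regions. With the combination 16% were gained and 34.9% lost, against 16.6% and 31.6% of all regions.

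ID2 (an inhibitor of E-protein transcription factors) had the most, with 85, of which 61 were called with ATRA, 59 in DMSO, 46 with Corin and 42 with the combination. MYC had 54, called 36, 25, 29 and 24 times in the same order. KLF4 (a factor of monocyte differentiation) had 50, called 43, 37, 33 and 34 times. Near MEF2C 28 members were called 21, 18, 20 and 13 times. Over all regions the shares called were 68.6%, 70.5%, 61.5% and 57.8% in this order.

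IRF8, a factor of monocyte and dendritic cell development, had 1 member, 255 kb away, with folds of 11.2 in DMSO, 28.8 in ATRA, 3.4 in Corin and 6.76 in the combination. Near NR4A3 there were 3 members, all called with ATRA and with the combination and 2 in DMSO and with Corin. BCL11A, by contrast, had 41 members of which ATRA called 21 and DMSO 27, where these lists called 68.6% and 70.5% of all regions. Members open in every list were most numerous near ID2 (32 of 85), KLF4 (26 of 50) and ETS1 (24 of 39). Of all regions 41.1% were open in every list.

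The desert between MYC and GSDMC, looked at after its values were seen, held 98 members, called 71 times with ATRA, 57 with DMSO, 57 with Corin and 46 with the combination. Over all regions the shares called were 68.6%, 70.5%, 61.5% and 57.8% in this order. Of the 71 called with ATRA, 24 were not called in DMSO, where the share over all regions was 23.3%. Of the 98 members, 4 were called with ATRA and the combination but not in DMSO, against 4.15% of all regions. The members of this desert that are nearer to GSDMC are not among the 54 counted for MYC.

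Of 28 genes of retinoid metabolism and signalling, 2 were the nearest coding gene of a member, with 14 members. CYP26B1, an enzyme that degrades retinoic acid, had 11, of which ATRA called 8, DMSO 8, Corin 8 and the combination 6. NRIP1, a nuclear receptor corepressor, had 3, of which ATRA called 0, DMSO 1, Corin 1 and the combination 3, with folds of at most 3.04. Together ATRA called 57.1% of the 14 and each other list 64.3%. The shares over all regions were 68.6% with ATRA, 70.5% in DMSO, 61.5% with Corin and 57.8% with the combination. The nearest coding gene is a matter of position, and no contact with a promoter was measured.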

How the data were processed

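ATAC-seq libraries of 8 samples, grouped by the treatment in their titles, were represented by 1 deposited peak list per group. Per the submitters' processing notes, cutadapt, Bowtie2, SAMtools, Picard and MACS2 were used with build hg38. Versions and peak-calling settings are not given in the sources used here. The authors deposited a fold of each summit over its local background (a ratio, column 7) and −log10 p and −log10 q values per peak. The deposited summit column is an offset in bp. Columns of other samples numbered 0.

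Peaks sharing at least 1 bp were merged over the 4 lists. A region took the highest fold of its peaks in a list. Starts of all transcripts of protein-coding genes came from GENCODE release 44. Merging was checked against bedtools, and distances against direct computation, on simulated intervals. The local background was solved from p and fold and divided by the most frequent value of its list. Motifs were searched on both strands in windows of 200 bp. Words of 32 bases were counted over the 24 chromosomes and the mitochondrial genome. Mitochondrial matches came from BLAST+ 2.17.0 (E-value up to 1e-10). The genome supplied is in upper case, so that the planned share of repeat-masked bases was not measured.

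Members, gene lists, motifs and rules were chosen with earlier results of these data known. Regions were named as the highest 3 folds per list, the strongest per call pattern, the farthest and the widest. Deserts were named for the most members, or for the most members called with ATRA and the combination but not in DMSO. Alternatives were a q limit, equal list lengths, other merging, other starts and distances, and leaving out chromosome 13.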

Additional observations from a re-analysis of the deposited data

How the results depend on the processing

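No paired analysis was possible because each list combines both samples of its group, and for the same reason no sample could be left out. Leaving out chromosome 13 was chosen after seeing the data. Of 116 alternative values, 66 stayed within 1.5 times (counts) or the 95% interval (medians and motif shares). Lists of equal length, merging within 150 bp, coding transcripts only, the nearest edge, a clearance of 500 bp and leaving out chromosome 13 kept all counts of members within 1.5 times. In 8 settings with recomputed shares, members were called in all 4 lists less often than all regions, and were gained and lost against DMSO more often, for each of the 3 treatments. Depth is unknown, so that absent calls may be regions below detection.

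With a limit of 5 on −log10 q, members lost with ATRA numbered 1552 (fewer than the 1874 gained), gained with Corin 776 and gained with the combination 872, since fewer peaks enter, and the median folds were 5.51 in DMSO, 7.22 in ATRA, 5.31 in Corin and 5.42 in the combination. A limit of 500 kb left 3798 members, 811 of them called in all 4 lists. ATRA gained 561 and lost 1029, Corin gained 642 and lost 947, and the combination gained 570 and lost 1051, with median folds of 3.68, 6.23, 3.11 and 3.28 in the order of the lists. With the starts of all genes, noncoding ones included, 570 members were left, 135 called in all 4 lists. Gained and lost were then 84 and 151 (ATRA), 109 and 123 (Corin), and 64 and 167 (combination). Unique windows gave median folds of 4.78 in DMSO, 4.17 with Corin and 4.41 with the combination. Leaving out chromosome 13 gave 5.15, 4.6 and 4.95. The DMSO median of all regions, also 5.15, still includes chromosome 13.

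In windows of 100 bp, fewer letters are searched and the shares were 7.38% (AP-1), 5.47% (PU.1), 9.32% (C/EBP), 5.92% (RUNX), 1.29% (GATA), 3.85% (IRF), 0.425% (KLF/SP), 8.07% (E-box) and 0.204% (GFI1). In windows of 40 to 50% GC they were 13.2% (AP-1), 8.35% (PU.1), 18.5% (C/EBP), 9.94% (RUNX), 3.38% (GATA), 8.99% (IRF), 0.104% (KLF/SP) and 11.8% (E-box).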
